A study of Mus musculus with 12 samples.

Results

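The 49 genes described here make the machinery of DNA replication and S phase: the replicative helicase and the factors that load and start it, the sliding clamp and its loader, the polymerases and primase, single-strand binding proteins, Okazaki fragment enzymes, enzymes of deoxynucleotide supply, fork protection, chromatin assembly and 3 regulators of entry into S phase. They were taken as a named list and looked up in a count table of 55453 gene symbols. Members were kept where the mean over all 12 libraries was at least 1 CPM (a count scaled to library size, here after TMM normalization), which left 36 of the 49. Genes on the minus strand of the chromosome were poorly counted in this table, so the 20 kept members on the plus strand are given first and the 16 kept members on the minus strand apart. The other 13 members, all on the minus strand, were under 1 CPM.

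The study asked how CNS4, a distal enhancer of Foxp3, bears on regulatory T (Treg) cells of the thymus, a class of CD4 T cells defined by Foxp3 that holds immune responses in check. RNA was sequenced from Treg cells sorted by flow cytometry as CD4+Foxp3+ from C57BL/6 mice, which the design text called age-matched without giving an age. There were 4 groups of 3 libraries: males with CNS4 knocked out (replicates 1, 2 and 3), males with the floxed, wild-type enhancer (replicates 1, 2 and 4), female knockout heterozygotes (1, 2 and 3) and, as their counterpart, female floxed heterozygotes (1, 2 and 3), as the labels name them. Foxp3 and CNS4 lie on the X chromosome, and which allele the sorted female cells used is not stated. Nor is it stated that the libraries are from different mice, so a p-value here measures only how far these samples spread, which may be technical.

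Before S phase, the origin recognition complex, Cdc6 and Cdt1 load the MCM ring onto DNA, and at the start of S phase Cdc45 and the GINS complex turn that ring into an active helicase. Polymerase alpha with primase starts each strand, the clamp loader places the PCNA clamp, and the polymerases delta and epsilon copy the DNA while ribonucleotide reductase and thymidylate synthase supply nucleotides. In thymocytes and activated T cells these genes are transcribed as a group under E2F factors when cells leave G1, so their RNA is used as a sign of cells in cycle.

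Of the 20 plus-strand members, 11 rose in knockout Treg cells over both sexes and 0 fell (edgeR quasi-likelihood test, Benjamini-Hochberg adjusted p under 0.05 over 12411 genes). They were the helicase subunit Mcm5, the licensing genes Orc1, Orc6 and Cdc6, the clamp loader subunit Rfc2, the primase subunit Prim1, the polymerase epsilon subunit Pole, the ligase Lig1, the ribonucleotide reductase subunit Rrm1, the fork protection gene Tipin and the cyclin gene Ccne2. Their fold changes ran from 1.29 (Rfc2) to 2.02 (Cdc6). For comparison, 3.23% of the 9474 plus-strand genes tested rose and 0.771% fell. The median log2 fold change was 0.56 over the 20 members, beside -0.00466 over all plus-strand genes tested. At an unadjusted p under 0.05, 14 of the 20 passed, all of them higher in knockout cells, beside 13.6% of plus-strand genes that passed in that direction. Limma-voom with quality weights, another test, called 14 members higher and 4 lower, where it called 17.1% of plus-strand genes higher and 23.3% lower. In RNA from a sorted population, more cells in S phase and more RNA of these genes per cell cannot be told apart.

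Together the 20 members took 2922 to 3072 CPM in male knockout libraries, against 1911 to 2440 CPM in male floxed libraries. In females they took 3034 to 3159 CPM in knockout libraries, against 1894 to 2136 CPM in floxed libraries. The summed level was thus higher in every knockout library than in any floxed library, and its lowest knockout value belonged to a male library. The 9 members that did not pass the test moved in several ways, which are described beside their roles.

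**Figure D1:**
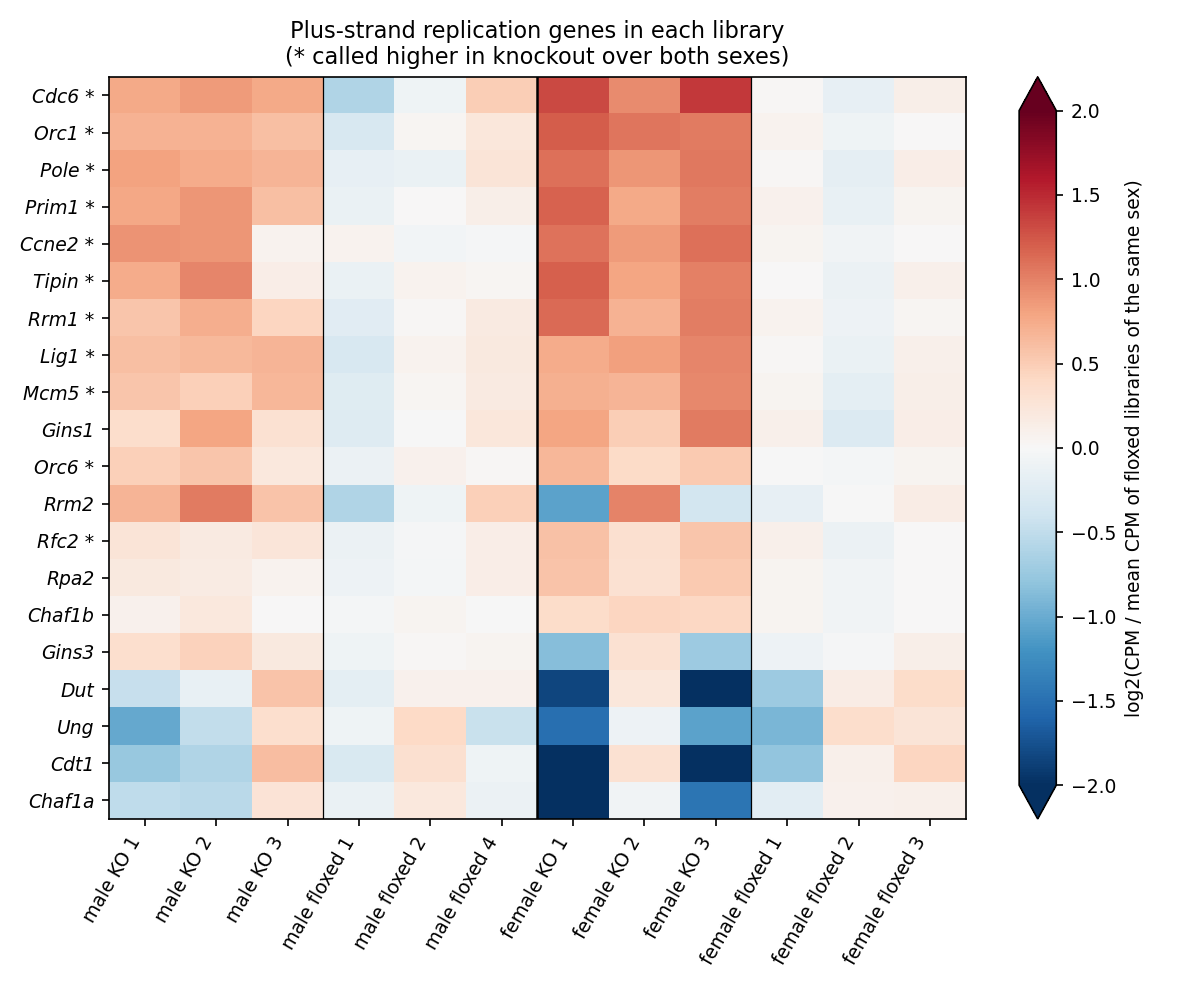
Colour gives log2 of a library's CPM over the mean CPM of its own sex's floxed libraries (red higher, blue lower, colours saturate at the ends of the scale), with 1 row for each of the 20 plus-strand members and 1 column for each of the 12 libraries; a star marks the 11 called higher over both sexes. Most rows are red across the knockout columns, while Cdt1, Dut, Ung, Chaf1a, Gins3 and Rrm2 are blue in female knockout libraries 1 and 3.

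Libraries held 12423335 to 30244505 gene counts, and plus-strand genes held 95.8 to 97.2% of the protein-coding reads. Replicates differed beyond counting noise. Foxp3, whose enhancer was deleted, had 1875, 1459.6 and 2034 CPM in male knockout libraries, against 2671, 2584 and 2223 CPM in male floxed libraries. It had 684, 1821 and 823 CPM in female knockout libraries, against 2578, 2654 and 2653 CPM in female floxed libraries, and its log2 fold change over both sexes was -0.86 (SE 0.22, adjusted p = 0.0599). Female knockout libraries 1 and 3, the lowest in Foxp3, stood apart on the first principal component (scores 98.9 and 93.4, against -72.9 to 33.1 in the other 10), which held 49.8% of the variance. They were also highest in mitochondrially encoded counts (4.04 and 3.40%, against 1.17 to 2.77%). Without them 2 members, Prim1 and Pole, were called over both sexes, among 44 genes in all, and 0.373% of plus-strand genes rose. Treg markers were present, with 14 of the 15 in the table at 1 CPM or more. Of the 15, the inhibitory receptor gene Ctla4 rose, at a log2 fold change of 0.50 (SE 0.12, adjusted p = 0.0457), and the receptor gene Gpr83 fell, at -0.74 (SE 0.09, adjusted p = 0.00465), and their part in the replication result was not tested.

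Markers of other cells moved with genotype in part, and their part in the replication result was not tested. Of 10 immature double-positive thymocyte markers 7 were tested, and over both sexes 0 were called, 1 had an unadjusted p under 0.05 and 7 lay above 0. In males 3 lay above 0 and 4 below, and in females 7 lay above. Their summed level was 398 to 724 CPM in male knockout and 718 to 1287 CPM in female knockout libraries, against 530 to 662 CPM in male floxed and 668 to 852 CPM in female floxed libraries. The highest sums were in female knockout libraries 1 and 3, at 936 and 1287 CPM. The defining genes Rag1 and Ptcra averaged 0.0260 and 0.0151 CPM. Both lie on the minus strand, which was poorly counted, so these levels do not show that such cells were absent. Of 18 myeloid and dendritic markers 12 were tested and 0 called, also at an unadjusted p under 0.05, with 11 above 0. That list summed to 242 to 1707 CPM in male knockout and 872 to 1649 CPM in female knockout libraries, against 105 to 1605 CPM in male floxed and 280 to 1155 CPM in female floxed libraries, and its highest male values were in knockout library 2 and floxed library 4. Without those 2 libraries 8 of the 11 members were still called, where 2.62% of plus-strand genes rose, and Orc6, Rfc2 and Ccne2 were not. Of the B cell, erythroid and thymic epithelial markers, 1, 3 and 3 were tested and 0 called, and Foxn1 and Krt5 had no reads.

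The MCM ring and the factors that load it onto origins gave 5 plus-strand members, of which 4 rose. Mcm5, a subunit of the ring, was the most abundant plus-strand member per length, at 119 CPM per kilobase of annotated exon. It had 549.7, 517 and 593 CPM in male knockout libraries, against 317, 382 and 421 CPM in male floxed libraries. In females it had 586, 574 and 693 CPM in female knockout libraries, against 372, 313 and 389 CPM in female floxed libraries. Every knockout library lay above every floxed library of either sex, and the log2 fold change was 0.68 (SE 0.10, adjusted p = 0.00652). Orc1, the largest subunit of the origin recognition complex, had 25, 25.1 and 23.4 CPM in male and 32.5, 29.6 and 29 CPM in female knockout libraries, against 12.3, 15.9 and 18.1 CPM in male and 14.8, 13.3 and 14.2 CPM in female floxed libraries. Its knockout and floxed libraries did not overlap, and the log2 fold change stood at 0.89 (SE 0.12, adjusted p = 0.00477). Orc6, the smallest subunit of the same complex, had 73.4, 76.8 and 60.8 CPM in male knockout libraries, against 48.3, 55.6 and 53.5 CPM in male floxed libraries. In females the values were 91.3, 75 and 83 CPM in female knockout libraries, against 57.2, 55.8 and 59.9 CPM in female floxed libraries. The genotypes did not overlap within a sex, and the log2 fold change was 0.48 (SE 0.10, adjusted p = 0.0253).

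Cdc6, the ATPase that recruits Cdt1 and the MCM ring, showed the largest change of the plus-strand members. It had 63, 67.6 and 63 CPM in male knockout libraries, against 24.7, 35 and 52.4 CPM in male floxed libraries. Female values were 74.6, 57 and 78.8 CPM in female knockout libraries, against 30.3, 26.5 and 32.4 CPM in female floxed libraries. The male knockout libraries lay close together, while the male floxed libraries were spread out, with floxed library 4 nearest to the knockout libraries. The log2 fold change was 1.01 (SE 0.17, adjusted p = 0.0135). Cdt1, its partner in loading, did not pass the test, at a log2 fold change of -0.53 (SE 0.53, adjusted p = 0.598). It had 34.2, 38.3 and 88.9 CPM in male knockout libraries, against 46.7, 72.7 and 54.4 CPM in male floxed libraries, and the genotypes overlapped. The female libraries gave 2.53, 29.8 and 5.16 CPM in female knockout libraries, against 13.8, 25.7 and 32.5 CPM in female floxed libraries, and knockout libraries 1 and 3 were the 2 lowest of all 12.

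Mcm5, Orc1, Cdc6 and Cdt1 are textbook targets of E2F factors. Their promoters and that of the licensing gene Orc6 are shown, also because Cdt1 was not called while the other 4 were. Each is the 250 bases before and 50 after the gene's start from RefSeq on GRCm38.p6, on the plus strand, with matches to the E2F-type motif TTTNNCGC (either strand) in capitals. They lie at chr11:98907901-98908200, chr4:108579204-108579503, chr8:75109259-75109558, chr8:122567765-122568064 and chr8:85299382-85299681.
Cdc6: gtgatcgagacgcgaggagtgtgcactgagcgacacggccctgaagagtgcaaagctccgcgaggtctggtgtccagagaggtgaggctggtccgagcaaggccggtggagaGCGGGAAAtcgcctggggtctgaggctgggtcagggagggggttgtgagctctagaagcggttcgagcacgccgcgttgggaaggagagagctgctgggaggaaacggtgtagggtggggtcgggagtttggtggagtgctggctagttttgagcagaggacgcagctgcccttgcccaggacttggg
Orc1: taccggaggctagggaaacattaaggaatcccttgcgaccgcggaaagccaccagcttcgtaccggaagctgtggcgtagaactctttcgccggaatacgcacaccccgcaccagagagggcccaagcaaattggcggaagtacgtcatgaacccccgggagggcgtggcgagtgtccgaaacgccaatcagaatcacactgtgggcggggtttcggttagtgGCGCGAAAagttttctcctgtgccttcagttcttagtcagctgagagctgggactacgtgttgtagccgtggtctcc
Mcm5: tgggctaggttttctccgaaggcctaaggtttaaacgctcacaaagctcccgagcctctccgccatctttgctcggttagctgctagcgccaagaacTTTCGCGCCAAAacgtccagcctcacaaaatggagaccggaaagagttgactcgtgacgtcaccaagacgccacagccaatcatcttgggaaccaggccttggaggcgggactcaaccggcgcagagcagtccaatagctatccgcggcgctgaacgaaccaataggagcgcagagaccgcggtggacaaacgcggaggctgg
Cdt1: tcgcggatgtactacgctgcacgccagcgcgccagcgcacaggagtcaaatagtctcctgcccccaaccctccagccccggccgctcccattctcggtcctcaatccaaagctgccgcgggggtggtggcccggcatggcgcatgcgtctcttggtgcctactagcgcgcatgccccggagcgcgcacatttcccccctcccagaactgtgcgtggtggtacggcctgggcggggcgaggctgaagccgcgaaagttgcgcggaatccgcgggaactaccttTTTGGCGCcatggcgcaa
Orc6: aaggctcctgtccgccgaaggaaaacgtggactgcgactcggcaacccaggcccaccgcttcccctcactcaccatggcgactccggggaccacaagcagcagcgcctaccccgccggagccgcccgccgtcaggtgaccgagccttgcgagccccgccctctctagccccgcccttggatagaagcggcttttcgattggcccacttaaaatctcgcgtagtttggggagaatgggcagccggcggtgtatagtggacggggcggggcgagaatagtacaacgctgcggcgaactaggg

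The match in the Cdc6 promoter began 138 bases before the start, that of Orc1 27 bases before it, and the Mcm5 promoter held a pair of overlapping matches on opposite strands that began 153 and 149 bases before it. The Cdt1 match lay after the start, from base 33 to base 40, and the promoter of Orc6, which was called, held 0 matches. Promoters were found for 39 of the 49 members, and 15 of them (38.5%) held the motif, beside 5.93% of the 27018 genes in the table. Among plus-strand members the motif was in 4 of 7 called ones (57.1%; Lig1 is the fourth) and in 2 of 8 others (25.0%; Gins3 is the second), and in 6 of 12 kept minus-strand members (50%). The CCAAT box was in 56.4% of members against 41.1% of genes, and the letters TTTGAA, the core of the cell cycle homology region, in 12.8% against 20.2%, on either strand. A match is a description of the sequence, not a binding site or a cause.

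**Figure D2:**
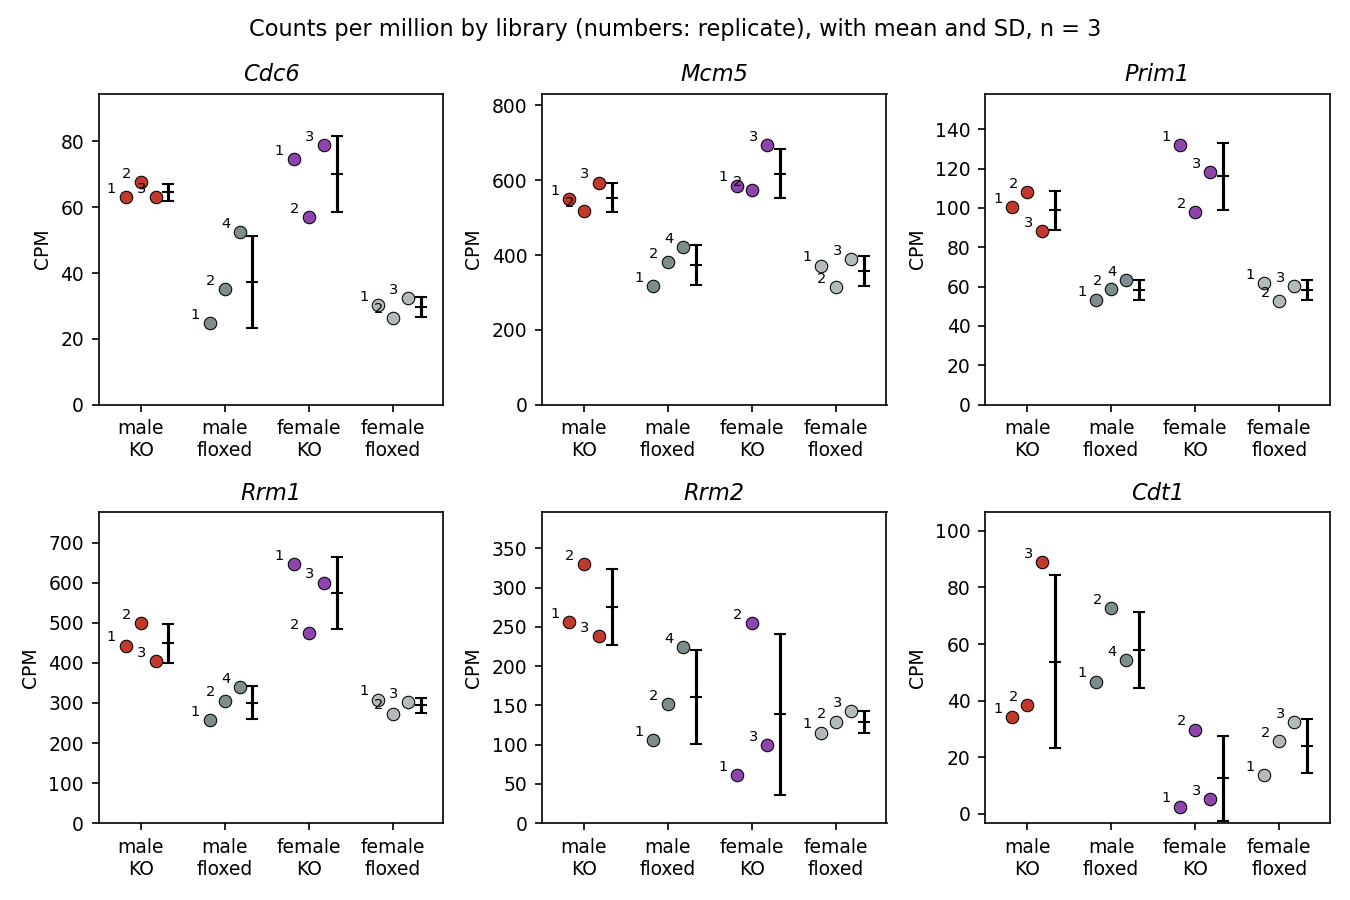
CPM in each library (points, numbered by replicate) for 6 plus-strand members in the 4 groups, with the group mean and SD (bars, n = 3). The knockout points of Cdc6, Mcm5, Prim1 and Rrm1 lie above all floxed points of the same sex, whereas Rrm2 and Cdt1 overlap in females, where knockout libraries 1 and 3 are lowest.

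The helicase activators on the plus strand were Gins1 and Gins3, subunits of the GINS complex, and neither passed the test. Gins1 had 14.3, 19.2 and 13.8 CPM in male and 19.6, 15.9 and 23.4 CPM in female knockout libraries, against 9.37, 11.1 and 13 CPM in male and 12.2, 9.42 and 12.5 CPM in female floxed libraries. Its genotypes did not overlap within a sex, yet the log2 fold change stood at 0.64 (SE 0.16, adjusted p = 0.0540), just outside the threshold. Gins3 had 39.2, 42.8 and 35.7 CPM in male knockout libraries, against 29.4, 31.9 and 32.4 CPM in male floxed libraries, with no overlap in males. Among females there were 17.5, 39 and 19.1 CPM in female knockout libraries, against 29.5, 31 and 34.2 CPM in female floxed libraries, with knockout library 2 highest and knockout libraries 1 and 3 lowest, and the log2 fold change over both sexes was 0.00 (SE 0.19, adjusted p = 0.997).

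At the fork itself, the genes for primase, polymerase epsilon and the ligase rose. Prim1, the catalytic subunit of primase, had 100.2, 108 and 88.2 CPM in male knockout libraries, against 53.3, 58.8 and 63.3 CPM in male floxed libraries. In females the values were 132, 98.1 and 118 CPM in female knockout libraries, against 61.8, 52.5 and 60.3 CPM in female floxed libraries. The genotypes were separate in both sexes, and the log2 fold change was 0.88 (SE 0.10, adjusted p = 0.00325), a fold of 1.84. Pole, the catalytic subunit of the leading-strand polymerase, had 178, 169 and 163 CPM in male knockout libraries, against 90.7, 92.8 and 121 CPM in male floxed libraries. In the females the level was 228, 194 and 219 CPM in female knockout libraries, against 107, 93.3 and 116 CPM in female floxed libraries. All 6 knockout libraries lay above all 6 floxed libraries, and the log2 fold change was 0.88 (SE 0.10, adjusted p = 0.00325). Prim1 and Pole were the 2 members called under every one of 22 alternative settings. Lig1, which seals Okazaki fragments, had 194, 201 and 205 CPM in male and 192, 202 and 224 CPM in female knockout libraries, against 103, 135 and 147 CPM in male and 116, 105 and 123 CPM in female floxed libraries. Its genotypes were separate too, at a log2 fold change of 0.74 (SE 0.10, adjusted p = 0.00465).

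Rfc2, a subunit of the clamp loader, had 281, 265 and 276 CPM in male knockout libraries, against 217, 230.2 and 255 CPM in male floxed libraries. For females the values were 343, 285 and 335 CPM in female knockout libraries, against 244, 209.5 and 229.6 CPM in female floxed libraries. The libraries of the genotypes did not overlap within a sex, but the change was the smallest among the called members, at a log2 fold change of 0.36 (SE 0.08, adjusted p = 0.0331). Rpa2, a subunit of the single-strand binding protein, did not pass the test, at 0.31 (SE 0.08, adjusted p = 0.0645) on the log2 scale. Its levels were 167, 164 and 152 CPM in male knockout libraries, against 135, 141 and 159.7 CPM in male floxed libraries, which overlapped. In females they were 208, 173 and 202 CPM in female knockout libraries, against 146, 134 and 141 CPM in female floxed libraries, which did not overlap.

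Of the subunits of ribonucleotide reductase, the enzyme that makes deoxynucleotides, Rrm1 passed the test and Rrm2 did not. Rrm1, the large subunit, had 443, 499 and 404 CPM in male knockout libraries, against 257, 306 and 339.9 CPM in male floxed libraries. In females it had 647, 474 and 600.5 CPM in female knockout libraries, against 308, 273 and 301 CPM in female floxed libraries. Each knockout library was above each floxed library, and the log2 fold change was 0.77 (SE 0.10, adjusted p = 0.00477). Rrm2, the small subunit that is made in S phase, had 256, 330.2 and 238 CPM in male knockout libraries, against 105, 152 and 225 CPM in male floxed libraries, also without overlap. Female values were 61.1, 255 and 99.7 CPM in female knockout libraries, against 115, 129 and 143 CPM in female floxed libraries. There knockout library 2 was the highest and knockout libraries 1 and 3 the lowest of the 6, and the log2 fold change over both sexes was 0.44 (SE 0.32, adjusted p = 0.443). Without those 2 libraries it was 0.88 (adjusted p = 0.180), and without library 2 instead it was 0.06 (adjusted p = 0.881).

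Dut, which removes dUTP before it can enter DNA, did not pass, at -0.39 (SE 0.40, adjusted p = 0.595) on the log2 scale. It had 57, 70.2 and 116 CPM in male knockout libraries, against 68.3, 83 and 83.4 CPM in male floxed libraries. The female libraries gave 10.9, 45.3 and 8.99 CPM in female knockout libraries, against 23.3, 42.9 and 50 CPM in female floxed libraries, and again knockout libraries 1 and 3 were the lowest. Ung, the glycosylase that removes uracil from DNA, had a log2 fold change of -0.52 (SE 0.34, adjusted p = 0.391), and was the least abundant plus-strand member per length, at 1.55 CPM per kilobase. It averaged 10.3 ± 4.98 CPM in male knockout and 4.09 ± 2.12 CPM in female knockout libraries, against 12.5 ± 3.72 CPM in male floxed and 6.99 ± 2.86 CPM in female floxed libraries (SD, n = 3 each).

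Tipin, which with Timeless protects stalled forks, rose, at a log2 fold change of 0.83 (SE 0.14, adjusted p = 0.0127). It had 135, 161 and 89.5 CPM in male knockout libraries, against 74.2, 85.6 and 83.8 CPM in male floxed libraries. Male knockout library 3 was only just above the highest floxed library. Among females there were 195, 146 and 170.1 CPM in female knockout libraries, against 85, 78.3 and 90.4 CPM in female floxed libraries, without overlap. Ccne2, the cyclin E2 gene that drives entry into S phase with its kinase, had 74.2, 73.7 and 41.6 CPM in male knockout libraries, against 41.7, 38.4 and 39.1 CPM in male floxed libraries. Here male knockout library 3 lay just below floxed library 1, so Ccne2 was the 1 called member whose genotypes overlapped in males. In the females the level was 74.1, 63 and 75.1 CPM in female knockout libraries, against 36.3, 33.1 and 35.2 CPM in female floxed libraries, and the log2 fold change over both sexes was 0.84 (SE 0.15, adjusted p = 0.0137).

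The subunits of chromatin assembly factor, which sets histones on new DNA, were not called. Chaf1b, the middle subunit, averaged 90.8 ± 6.63 CPM in male knockout and 107 ± 1.93 CPM in female knockout libraries, against 84.6 ± 2.80 CPM in male floxed and 80.5 ± 3.81 CPM in female floxed libraries (SD, n = 3 each), at a log2 fold change of 0.25 (SE 0.07, adjusted p = 0.0927). Chaf1a, the large subunit, had 42.4, 164 and 62.8 CPM in female knockout libraries, against 149, 184 and 184 CPM in female floxed libraries. Its log2 fold change over both sexes was -0.57 (SE 0.30, adjusted p = 0.304). Of its exons 4648 bases overlap Ubxn6 on the other strand, and as the strand setting of the counting is not given in the sources used here, reads of such pairs cannot be told apart. Exons of 7 of the 20 plus-strand members have such overlap, among them 6 of the 11 called (Orc1, Orc6, Rfc2, Pole, Lig1 and Ccne2, 78 to 952 bases). The 5 called members without it were Mcm5, Cdc6, Prim1, Rrm1 and Tipin.

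Within each sex the direction of the called members was shared, but few calls were made. In males 0 of 20 members passed the edgeR test, where 0.0211% of plus-strand genes rose, and 11 had an unadjusted p under 0.05, beside 9.46% of plus-strand genes. DESeq2 called 6 members in males and limma-voom 7, all higher, where they called 1.70% and 1.51% of plus-strand genes higher. The male log2 fold changes of the 11 members called over both sexes ran from 0.23 (Rfc2) to 0.79 (Cdc6), with adjusted p from 0.103 to 0.663, and the median over the 20 members was 0.53, beside 0.03 over all plus-strand genes. In females 5 of 20 rose, where 0.243% of plus-strand genes did: Orc1 at 1.11 (SE 0.17, adjusted p = 0.0361), Prim1 at 0.996 (SE 0.15, adjusted p = 0.0361), Pole at 1.02 (SE 0.14, adjusted p = 0.0265), Lig1 at 0.85 (SE 0.14, adjusted p = 0.0458) and Rrm1 at 0.96 (SE 0.15, adjusted p = 0.0361) on the log2 scale. The female median was 0.66, beside -0.00290. These female calls depended on single libraries, as did those of all plus-strand genes. The count was 0 without female knockout 1 or 3, or without any 1 of the 3 female floxed libraries. It was also 0 without male knockout 1, male knockout 2 or male floxed 2. In each of these settings 0.00% of plus-strand genes were called as well. Without female knockout 2, 18 members were called (14 higher and 4 lower), where 8.49% of plus-strand genes were called higher and 17.2% lower.

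With all 12 libraries the female change was larger than the male change for each of the 11 called members, by 0.11 (Orc6) to 0.45 (Cdc6) on the log2 scale, with standard errors of 0.16 to 0.34. Without female knockout libraries 1 and 3 the female minus male difference ran from -0.0374 (Orc6) to 0.41 (Orc1). On all 12 libraries the test of the difference called 0 of 20 members, 0 also at an unadjusted p under 0.05 and 0 by DESeq2, and across all 12411 genes 0.00% were called. Limma-voom called 3, all in the lower direction, beside 8.72% of plus-strand genes, and so did the edgeR test without female knockout library 2, beside 9.53%, where they were Gins3 at -1.12 (SE 0.20, adjusted p = 0.00853), Dut at -2.01 (SE 0.47, adjusted p = 0.0279) and Chaf1a at -1.51 (SE 0.37, adjusted p = 0.0330). Each of the 11 called members had its highest value of all 12 libraries in a female knockout library, 7 in library 1 and 4 in library 3. The 11 were called on means that include these libraries, and the share of all plus-strand genes that peak there was not counted.

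**Figure D3:**
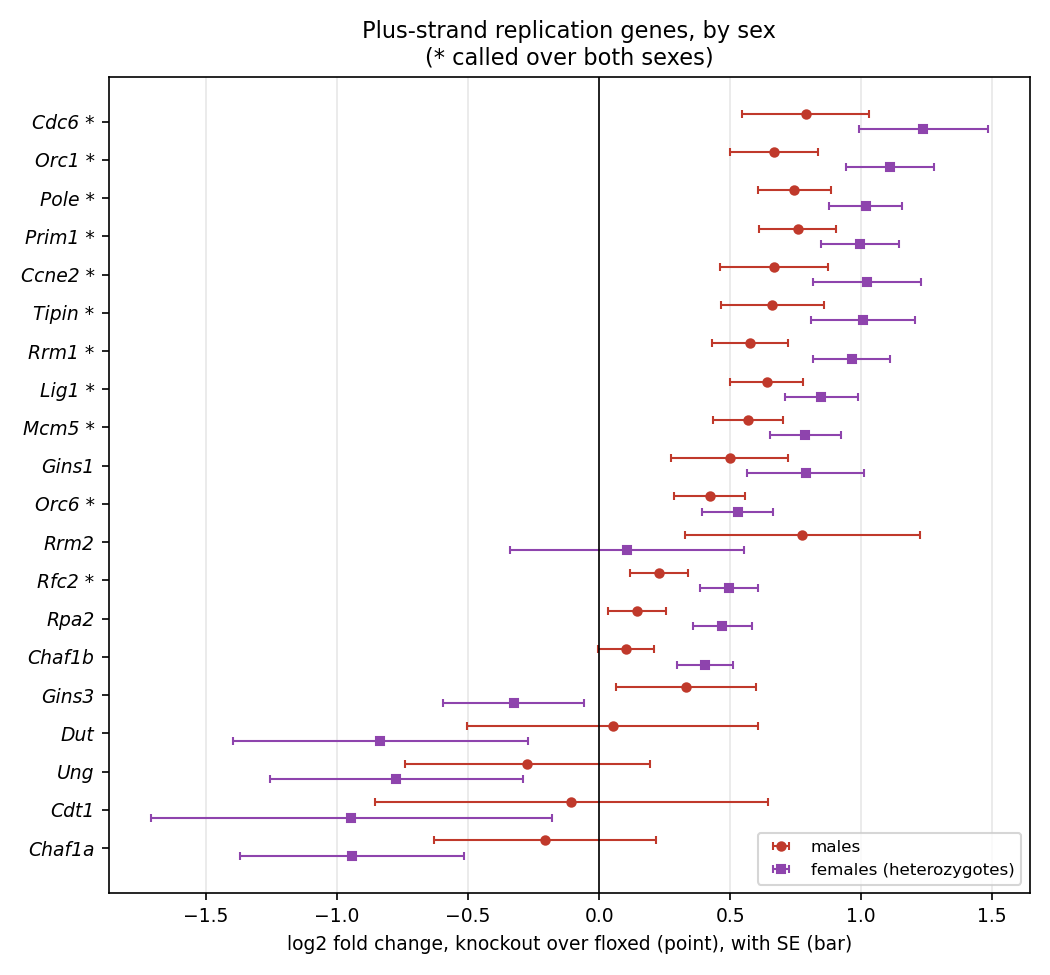
Log2 fold change of knockout over floxed for the 20 plus-strand members in males (circles) and in heterozygous females (squares), with SE bars. The called members, marked by a star, lie right of 0 in both sexes and further right in females, while Cdt1, Dut, Ung, Chaf1a and Gins3 lie left of 0 in females.

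A separate count asked how often every knockout library lay above every floxed library of the same sex. This held for 13 of 20 members in males, where 9.40% of plus-strand genes did so, for 14 in females, beside 16.9%, and for 11 in each sex at once, beside 4.75%. The 11 were 10 of the called members and Gins1. No plus-strand member had every knockout library below every floxed library in either sex. Among the 9474 plus-strand genes tested, 606 lay below in that way in males and 894 in females.

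Cdt1, Gins3, Rrm2, Dut, Ung and Chaf1a shared a pattern that was seen in the values and therefore not tested. Each was at least 1.5 times higher in female knockout library 2 than in the mean of libraries 1 and 3, from 2.13 times for Gins3 to 7.74 times for Cdt1. Their summed level was 137 and 199 CPM in female knockout libraries 1 and 3 and 539.5 CPM in library 2, against 335 to 452 CPM in the female floxed libraries. The 11 called members were between 0.743 and 0.970 times as high in library 2 as in the mean of the other two. The share of members with the pattern, 6 of 20 or 30.0%, was near that of all plus-strand genes, of which 28.2% (2676 of 9474) had it. The GC content of the 6 ran from 46.0 to 57.8%, with a median of 49.2%, and that of the other 14 members from 36.3 to 53.6%, with a median of 48.1%. The 6 were picked as lower in libraries 1 and 3 than in library 2. Leaving out library 2 therefore keeps the libraries that defined the 6 and does not test them. Without female knockout library 2, 3 of the 6 were called lower over both sexes, Cdt1 at -1.36, Dut at -0.94 and Chaf1a at -0.95 on the log2 scale, and 17 of the 20 members were called in all. In that setting 15.1% of plus-strand genes were called lower and 9.96% higher, beside 3 and 14 of the 20 members. Without libraries 1 and 3 instead, Cdt1 was at 0.10, Dut at 0.13 and Chaf1a at -0.14, which is likewise no test of the 6.

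The called members kept their sign when female knockout libraries 1 and 3 were left out, at 0.28 to 0.87 on the log2 scale over both sexes, with adjusted p from 0.0399 to 0.245. Prim1 was then at 0.76 (adjusted p = 0.0399) and Pole at 0.81 (adjusted p = 0.0474), both still called. Mcm5, at 0.62 (adjusted p = 0.0617), Orc1, at 0.87 (adjusted p = 0.0612), Lig1, at 0.73 (adjusted p = 0.0528), and Rrm1, at 0.63 (adjusted p = 0.0648), lost their calls in that setting and in no other of the 22. Cdc6 was called under 19 of 22 alternatives, Tipin under 20 of 22 and Ccne2 under 18 of 22, each lost among others without female floxed library 2. Orc6 and Rfc2 were each called under 9 of 22, and lost their calls on leaving out any 1 of 9 libraries.

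**Figure D4:**
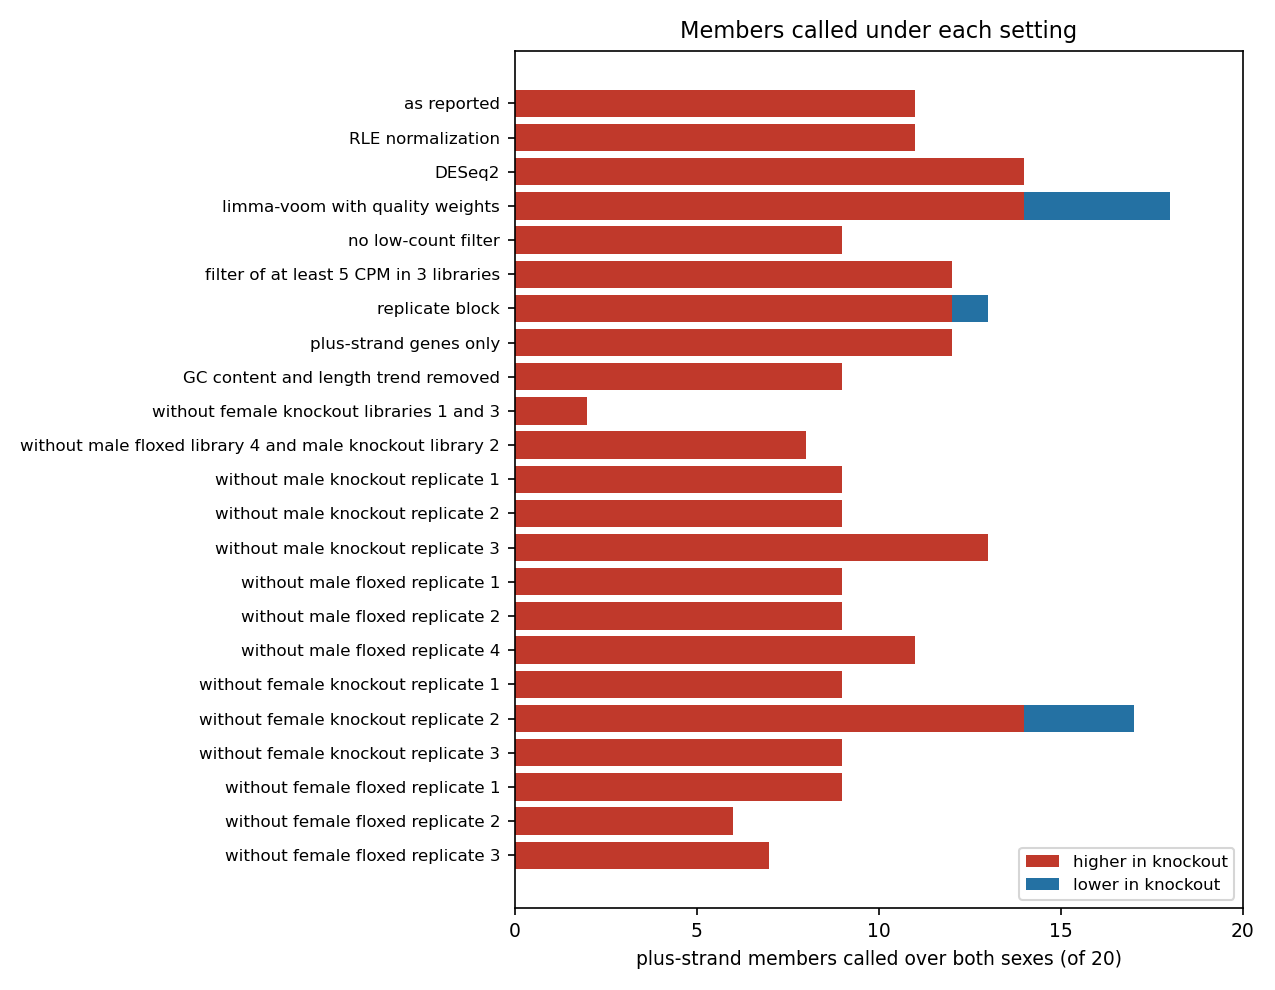
Number of the 20 plus-strand members called higher (red) and lower (blue) over both sexes in the reported setting and under each alternative. The count is 11 as reported, 2 without female knockout libraries 1 and 3, and 17 without female knockout library 2.

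The minus-strand members were counted at low levels, with a median of 3.49 CPM over the 16 kept ones, beside 86.7 CPM over the plus-strand members. Reads on these genes may be sense or antisense, which cannot be told apart without the strand setting. Of the 16, 6 rose and 0 fell over both sexes, where 0.877% of minus-strand genes tested rose, and 10 had an unadjusted p under 0.05, beside 14.6% of those genes, among them Gins4, which lay lower. The median log2 fold change was 0.50, beside -0.09 over all minus-strand genes.

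Mcm7 and Pcna had the highest levels in CPM among the minus-strand members. Mcm7, a further subunit of the MCM ring, had 161, 171 and 161 CPM in male and 186, 181 and 215 CPM in female knockout libraries, against 119.7, 128 and 135 CPM in male and 135, 121 and 135 CPM in female floxed libraries. Its genotypes did not overlap in either sex, and the log2 fold change stood at 0.47 (SE 0.08, adjusted p = 0.0114), though 385 of its exon bases overlap Ap4m1 and Cops6. Pcna, the sliding clamp that holds polymerases on DNA, had 158, 162 and 108 CPM in male knockout libraries, against 96.4, 91.7 and 105 CPM in male floxed libraries. For females the values were 232, 153 and 172 CPM in female knockout libraries, against 109.7, 114 and 117 CPM in female floxed libraries, and the log2 fold change was 0.63 (SE 0.13, adjusted p = 0.0291). Male knockout library 3 was the lowest knockout library and still above the male floxed ones.

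Tyms, thymidylate synthase, which makes the thymidine nucleotide, had 44.3, 43.5 and 35.1 CPM in male and 50.2, 36.2 and 44.2 CPM in female knockout libraries, against 17.5, 20.9 and 32.8 CPM in male and 20.6, 17.6 and 24.5 CPM in female floxed libraries. Its knockout libraries lay above the floxed ones of each sex, at a log2 fold change of 0.92 (SE 0.18, adjusted p = 0.0204). Gmnn, the inhibitor of Cdt1, had 10.9, 12.7 and 7.47 CPM in male and 18.3, 11.8 and 13 CPM in female knockout libraries, against 5.10, 6.12 and 7.22 CPM in male and 6.20, 8.14 and 8.01 CPM in female floxed libraries, again without overlap within a sex, at 0.85 (SE 0.18, adjusted p = 0.0340). Pola1, the catalytic subunit of polymerase alpha and the 1 X-linked member among those called, averaged 3.10 ± 0.601 CPM in male knockout and 5.30 ± 0.526 CPM in female knockout libraries, against 1.88 ± 0.533 CPM in male floxed and 2.62 ± 0.225 CPM in female floxed libraries (SD, n = 3 each). The log2 fold change came to 0.87 (SE 0.18, adjusted p = 0.0258). Cdc45, which joins the MCM ring and GINS in the active helicase, was at 1.02 (SE 0.21, adjusted p = 0.0261) on 9 to 59 reads a library. Of its exon bases 209 overlap Ufd1 on the other strand. All 6 calls were lost without female knockout libraries 1 and 3 and without female floxed library 2 or 3, and 5 of the 6, all but Mcm7, also on leaving out each of 6 or more other libraries.

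The other 10 kept minus-strand members were not called. Prim2 at 0.85 (SE 0.26, adjusted p = 0.0987), Rfc4 at 0.65 (SE 0.21, adjusted p = 0.116), Pold3 at 0.46 (SE 0.17, adjusted p = 0.166) and Gins4 at -0.86 (SE 0.38, adjusted p = 0.245) on the log2 scale had an unadjusted p under 0.05. Prim2 is the large subunit of primase, Rfc4 a clamp loader subunit, Pold3 an accessory subunit of polymerase delta and Gins4 a GINS subunit. Mcm3, Mcm4, Mcm6, Rfc1, Pola2 and Rpa1 ran from -0.63 (Mcm6) to 0.52 (Mcm3), with adjusted p from 0.436 to 0.581. Mcm6, another subunit of the ring, had 1.93, 11.8 and 1.62 CPM in female knockout libraries, against 4.86, 17.2 and 13.9 CPM in female floxed libraries, so that knockout libraries 1 and 3 were the lowest as for Cdt1. In males it had 14, 15.9 and 12.9 CPM in male knockout libraries, against 18.7, 11.8 and 12.9 CPM in male floxed libraries, which overlapped.

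The 13 members under 1 CPM were Mcm2, Mcm10, Gins2, Rfc3, Rfc5, Pold1, Pold2, Pole2, Rpa3, Fen1, Tk1, E2f1 and Ccne1. None had more than 35 reads in a library, and 6 of them entered the test, with 0 called and 0 at an unadjusted p under 0.05. The other 7, among them E2f1, a leading E2F factor, and Ccne1, the sister gene of Ccne2, had too few reads to enter the test. One of the untested genes, Mcm10, which helps to start the helicase, was picked for its values and had 1 to 14 reads a library. Its genotypes stood apart in females, with 0.844, 0.286 and 0.589 CPM in female knockout libraries, against 0.135, 0.0754 and 0.0611 CPM in female floxed libraries. In males they overlapped, with 0.314, 0.330 and 0.0379 CPM in male knockout libraries, against 0.0689, 0.0775 and 0.139 CPM in male floxed libraries. Of the 2852 minus-strand genes tested, 283 had every female knockout library above every female floxed library.

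**Figure D5:**
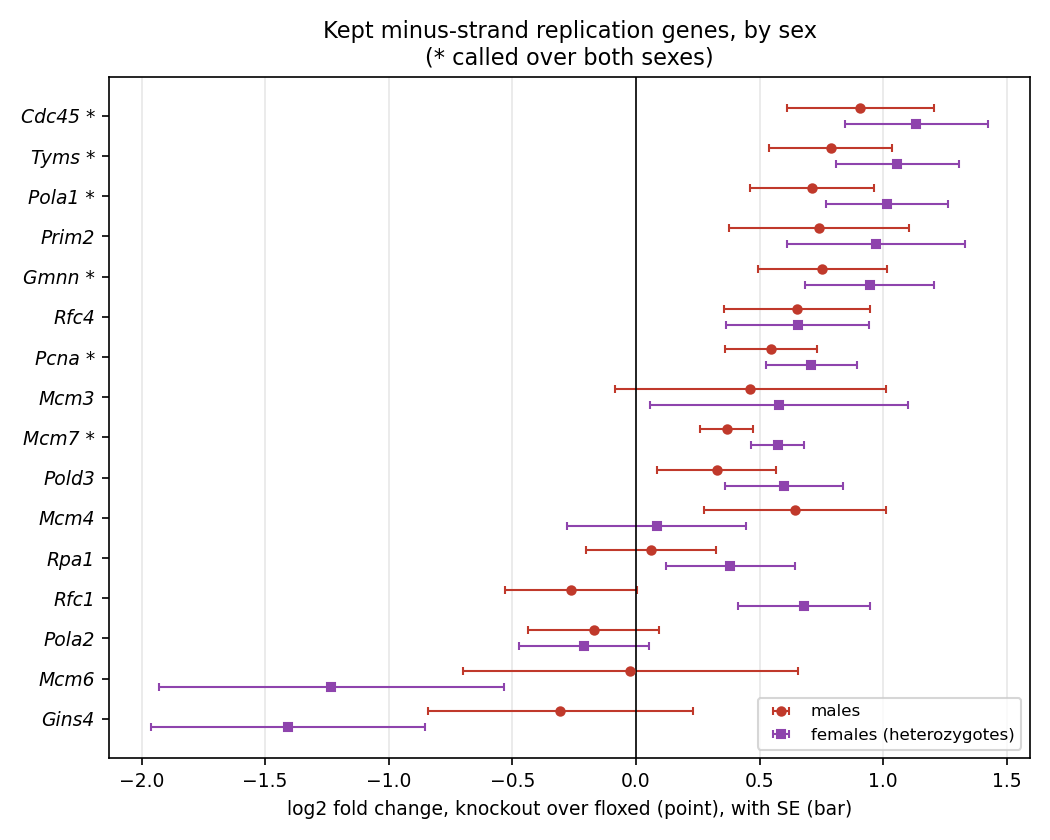
Log2 fold change of knockout over floxed for the 16 kept minus-strand members in males (circles) and in heterozygous females (squares), with SE bars. The 6 called over both sexes, marked by a star, lie right of 0 in both sexes, and Gins4 and Mcm6 lie furthest left in females.

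Other genes of replication and S phase entry were read from a list of 82, of which 66 were tested. On the plus strand 9 of 41 rose and 0 fell, where 3.23% of plus-strand genes rose, and 21 had an unadjusted p under 0.05, beside 22.0%. Their median log2 fold change was 0.27. The largest rise was in Asf1b, a histone chaperone that hands histones to chromatin assembly factor, which had 137, 142 and 134 CPM in male and 172, 114 and 138 CPM in female knockout libraries, against 49.3, 69.98 and 97.2 CPM in male and 68, 59.6 and 69.9 CPM in female floxed libraries. Its genotypes were separate in both sexes, at a log2 fold change of 1.02 (SE 0.16, adjusted p = 0.0105). Hat1, which acetylates new histones, was at 0.48 (SE 0.11, adjusted p = 0.0420). Clspn, the checkpoint mediator at the fork, was at 0.91 (SE 0.17, adjusted p = 0.0176) and the resection nuclease Exo1 at 0.91 (SE 0.17, adjusted p = 0.0175). For origin firing, the kinase Cdc7 was at 0.38 (SE 0.08, adjusted p = 0.0394) and Mtbp, a partner of Treslin, at 0.43 (SE 0.10, adjusted p = 0.0455). In nucleotide supply, Dck, deoxycytidine kinase, was at 0.39 (SE 0.07, adjusted p = 0.0167).

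None of the 11 plus-strand genes of G1/S control outside the 49 was called, where 3.23% of plus-strand genes rose and 0.771% fell. Their log2 fold changes ran from -0.58 to 0.65, with 6 above 0 and 5 below. Of the 11, 6 had an unadjusted p under 0.05, beside 22.0% of plus-strand genes. On the minus strand 0 of 25 were called, where 0.877% of minus-strand genes rose. Of the 25, 4 had an unadjusted p under 0.05, beside 14.6% of minus-strand genes. Among these were the proliferation genes Top2a, a topoisomerase of dividing cells, at 1.15 (SE 0.28, adjusted p = 0.0509) and Mki67, which encodes the Ki-67 antigen, at 1.37 (SE 0.35, adjusted p = 0.0626). Top2a had 9.29, 8.72 and 3.11 CPM in male and 12.8, 7.57 and 10.2 CPM in female knockout libraries, against 3.10, 2.17 and 3.89 CPM in male and 4.92, 4.90 and 4.46 CPM in female floxed libraries, with overlap in males. Mki67 rested on 2 to 18 reads a library.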

How the data were processed

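RNA of 12 libraries, 3 in each of 4 groups, was sequenced with stranded kits, per the labels' protocols. The authors deposited raw counts of reads per gene symbol, with no normalization. The submitters' processing notes name CASAVA, STAR 2.5.2b, STAR 2.3.0e, HTSeq 0.6.1p1 and build mm9. What each STAR version did, the gene annotation and the strand setting are not given in the sources used here. HTSeq's 5 summary entries were left out, and reads in genes were 29.5 to 35.7% of a library. Strand, chromosome, exon length and GC content came from GENCODE M21 by symbol (54586 of 55453 matched), which is on a later build, so no coordinates were taken from it.

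Genes were filtered with filterByExpr and scaled by TMM, and all 12 libraries were fitted with 1 mean per group in edgeR 4.0.16 (R 4.3.3), with robust quasi-likelihood tests. P-values were adjusted by Benjamini-Hochberg over 12411 genes, with a threshold of 0.05. Log2 fold changes are knockout over floxed, within males, within females and as the mean of both. CPM were computed from counts and TMM-adjusted library sizes. Principal components used log2 CPM with a prior count of 2.

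The members and lists were chosen with earlier results of these data known. Values in every library were planned for called plus-strand members, for Rrm2 and for the 3 with the largest p. They were also given for Gins1 and Rpa2, which lay near the threshold, and for some minus-strand and other genes. Chaf1a was given by library in females only, and the rest were described by role or group mean. Some results of the list of other replication genes are not reported here. Alternatives were RLE scaling, DESeq2 1.42.0, limma-voom (limma 3.58.1), other filters, a replicate block, 1 sex alone, plus-strand genes alone, a GC and length trend removed, and libraries left out. The fit was tested on simulated data. Promoters and their coordinates came from RefSeq on GRCm38.p6. Plots were made in Python 3.11.15 (matplotlib 3.10.9).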

Additional observations from a re-analysis of the deposited data

How the results depend on the processing

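Over both sexes the 11 called plus-strand members kept their sign under all 22 alternatives. The count of 11 became 18 with limma-voom (14 higher, 4 lower), which called 40.4% of plus-strand genes in either direction, and 2 without female knockout libraries 1 and 3 (0.423% of genes called; the same share follows other counts). It was 6 to 17 when 1 library was left out, with 6 without female floxed library 2 (1.04%), 7 without female floxed library 3 (0.972%) and 17 without female knockout library 2 (25.1%). It stayed between 8 and 14 otherwise (DESeq2 14, beside 10.6%). In males, the count of 0 became 6 with DESeq2 (2.34% of genes) and 7 with limma-voom (1.83%), and 0 to 1 with 1 library left out (0.00% to 0.348%). In females, the count of 5 became 14 with DESeq2 (6.62%), 19 with limma-voom (45.7%) and 9 with no low-count filter (0.453%). It was 1 with the GC and length trend removed (0.0844%) and 0 on the female libraries alone (0.00%). It was 0 to 18 with 1 library left out (0.00% to 25.7%). With female knockout libraries 1 and 3 left out, female log2 fold changes of the 11 called members ran from 0.33 to 1.07. For the difference between the sexes, the count of 0 became 3 with limma-voom (9.33%) and 0 to 3 with 1 library left out (0.00% to 9.70%). With the replicate number as a replicate block, 13 members were called over both sexes (12 higher, 1 lower, beside 11.4% of genes). In males and in females it called 0 members and 0.00% of plus-strand genes. Male knockout 3 and male floxed 4 had no partner of the same number, so the male estimate rested on replicates 1 and 2. The male median was 0.66 in place of 0.53. Same-numbered libraries deviated together in 3 of 5 pairs, and 2 of 5 knockout libraries matched their own number best, so the numbers were not taken as pairs. The other medians moved by less than 0.123, the pooled SD of the libraries' medians. Several members that were not called changed sign. Without female knockout libraries 1 and 3, Cdt1 was at 0.10, Dut at 0.13, Mcm3 at -0.0482 and Rfc1 at -0.00733. Pola2 was at 0.0132 with the replicate block. Gins3, at 0.00 as reported, was at -0.16 with limma-voom, -0.00486 with RLE scaling, -0.00527 with DESeq2, -0.00498 with no filter, -0.00962 with the filter of 5 CPM, -0.00179 with the replicate block, -0.00350 with male knockout library 2 and male floxed library 4 left out together, and -0.22 to 0.0918 with 1 library left out. The cause was not tested in any of these. Some minus-strand members rested on few reads, such as Cdc45 with 9 to 59 a library.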
